A study of Mus musculus with 2 samples.

Results

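The genes described here are 31 enzymes and regulators of cholesterol and fatty acid synthesis, chosen by name from the pathway and its control by sterol regulatory element-binding proteins (SREBPs). Of these, 30 were measured by a probe set assigned to a single gene, among 19938 genes measured in this way. Acat2, the acetoacetyl-CoA thiolase at the entry of the pathway, had no such probe set and is not described further. The 2 samples were dermal cells from the back skin of newborn (postnatal day 0) C57BL/6 mice, grown for 24 h in medium with fetal bovine serum and then transfected for 48 h with 10 nM of siRNAs specific for β-catenin or with 10 nM of a control siRNA. siRNAs are small RNA duplexes that guide the cutting of transcripts they match. Each group was 1 Affymetrix whole-transcript array, and the labels do not say how many pups or cultures stood behind it. Serum contains lipoproteins, and both cultures received it per the labels' protocols.

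Cholesterol is made from acetyl-CoA through mevalonate, the isoprenoid farnesyl diphosphate, squalene and lanosterol. SREBP proteins are held in the endoplasmic reticulum by Scap and Insig proteins when sterols are plentiful. When sterols are low, Scap carries them to the Golgi, where proteases release the active factor. SREBP2 acts chiefly on sterol genes and SREBP1c chiefly on fatty acid genes. Many of their target promoters are known to be bound together with NF-Y, which recognises a CCAAT box, or Sp1, which recognises GC-rich elements. β-catenin links cadherins to the cytoskeleton and, in canonical Wnt signalling, acts on genes together with TCF/LEF factors.

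To show the regulatory sequence of the genes described below, RefSeq promoter windows (GRCm38.p6, 250 bases before to 50 after the annotated start) were searched on both strands. Windows were found for 24 of the 30 measured genes, as 32 windows in all, because 5 genes have several annotated starts. The windows of 5 genes are printed 5′ to 3′ on the gene's strand. Hmgcs1 is shown because it holds the only match to the sterol regulatory element letters, Mvd and Hsd17b7 because they were among the lowest genes, and Insig1 and Insig2 because they differed in opposite directions. Capitals mark matches to TCACNCCAC (sterol regulatory element), CCAAT (NF-Y) and GGGCGG (Sp1), or to their reverse complements.
Hmgcs1, chr13:119690101-119690400, plus strand: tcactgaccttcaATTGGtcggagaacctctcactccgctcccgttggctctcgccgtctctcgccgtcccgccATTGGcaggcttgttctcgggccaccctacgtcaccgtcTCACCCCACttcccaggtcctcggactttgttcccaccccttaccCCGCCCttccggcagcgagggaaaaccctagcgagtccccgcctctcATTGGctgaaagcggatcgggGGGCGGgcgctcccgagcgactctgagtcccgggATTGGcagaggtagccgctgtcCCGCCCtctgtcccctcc
Mvd, chr8:122443373-122443672, minus strand: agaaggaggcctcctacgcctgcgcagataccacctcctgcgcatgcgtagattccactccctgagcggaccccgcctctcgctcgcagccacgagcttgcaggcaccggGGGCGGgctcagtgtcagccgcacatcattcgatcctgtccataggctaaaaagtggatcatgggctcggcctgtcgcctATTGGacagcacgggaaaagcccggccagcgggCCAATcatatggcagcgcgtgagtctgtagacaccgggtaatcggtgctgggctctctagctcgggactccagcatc
Hsd17b7, chr1:169969156-169969455, minus strand: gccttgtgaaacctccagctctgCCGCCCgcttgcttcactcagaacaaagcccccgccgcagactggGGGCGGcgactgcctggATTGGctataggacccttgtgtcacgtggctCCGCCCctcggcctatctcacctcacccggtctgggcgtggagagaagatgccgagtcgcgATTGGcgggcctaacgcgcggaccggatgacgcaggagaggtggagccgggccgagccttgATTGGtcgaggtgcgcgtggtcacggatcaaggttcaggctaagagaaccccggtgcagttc
Insig1, chr5:28071162-28071461, plus strand: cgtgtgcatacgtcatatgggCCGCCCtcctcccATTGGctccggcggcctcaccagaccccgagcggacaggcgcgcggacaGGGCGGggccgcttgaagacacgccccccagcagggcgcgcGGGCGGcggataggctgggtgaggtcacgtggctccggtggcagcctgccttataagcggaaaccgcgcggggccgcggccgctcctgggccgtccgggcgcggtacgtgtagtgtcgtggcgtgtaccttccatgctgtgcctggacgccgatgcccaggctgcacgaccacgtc
Insig2, chr1:121332540-121332839, minus strand: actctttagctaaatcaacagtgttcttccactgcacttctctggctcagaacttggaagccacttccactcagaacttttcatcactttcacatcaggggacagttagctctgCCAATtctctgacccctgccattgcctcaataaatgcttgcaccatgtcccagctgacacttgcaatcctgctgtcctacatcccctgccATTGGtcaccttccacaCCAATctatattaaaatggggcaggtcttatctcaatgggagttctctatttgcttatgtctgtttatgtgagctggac
The Insig2 window is the farthest upstream of its 3 annotated starts.

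CCAAT letters were common in these windows. Of the 24 genes with a window, 20 (83.3%) held CCAAT in at least 1 of their windows, against 41.7% of 15614 measured genes and 41.1% of all 27025 genes with a window. All 14 sterol synthesis enzymes with a window held it. The 4 genes without it were Scap, Lpin1, Acaca and Elovl6. GGGCGG was found in 19 of the 24 genes (79.2%), against 52.9% of measured genes. The windows were also richer in G and C, with a median GC content of 61.8%, against 57.3% for windows of measured genes, and the part of this in the GGGCGG share was not tested. The sterol element letters TCACNCCAC were found in Hmgcs1 alone (4.17% of the 24 genes, against 1.40% of measured genes). The letters TCACGTGA, an E-box that SREBP1 and USF factors can bind, and CTTTGAT, a core of TCF/LEF sites through which β-catenin acts, were in none of the 24, against 1.52% and 3.71% of measured genes. Only the exact letters were searched, so variant sites of these factors were not counted. For example, the printed Hsd17b7 and Insig1 windows hold TCACGTGG, which was not searched. No matches of different motifs overlapped in these windows. Of 43 CCAAT matches in these genes, 31 (72.1%) began within 150 bases upstream of the start, against 60.3% of the CCAAT matches in all windows.

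**Figure D1:**
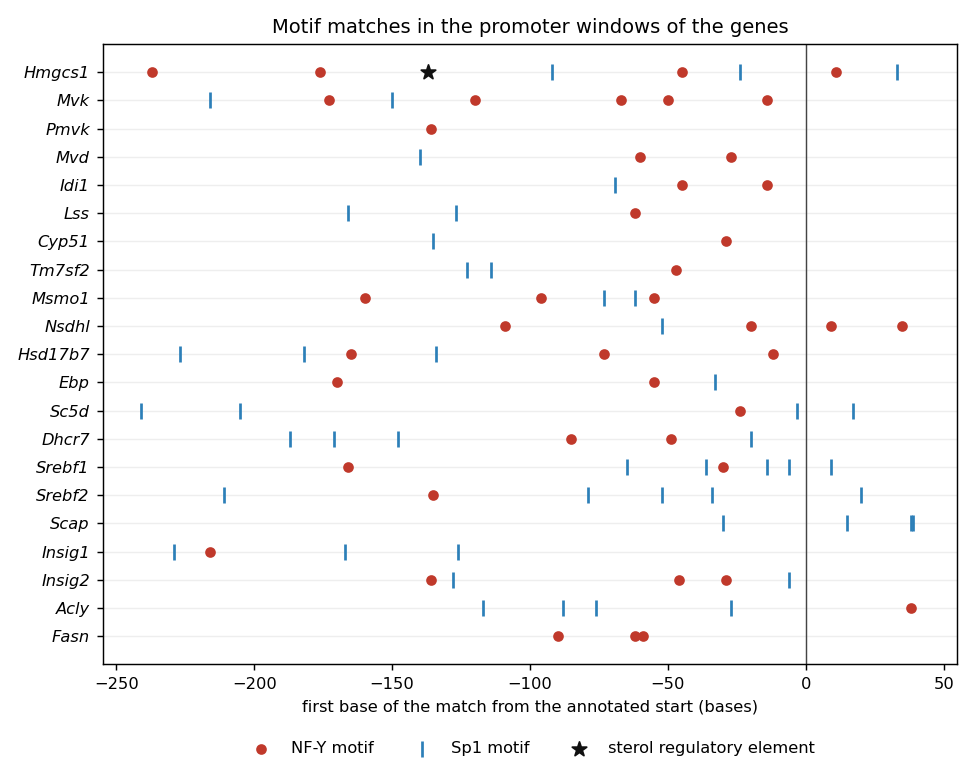
Positions of motif matches in the promoter windows of 21 genes, in bases from the annotated start (x axis), with 1 row per gene and the windows of several starts laid over each other. Red points are CCAAT (NF-Y), blue ticks GGGCGG (Sp1) and the star the single TCACNCCAC match, in Hmgcs1. Most CCAAT matches lie within 150 bases upstream of the start.

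The array of the β-catenin siRNA culture carried less target transcript. Ctnnb1, which encodes β-catenin, had a log2 value of 9.34 on the β-catenin siRNA array, against 10.48 on the control siRNA array, or 45.2% of the control signal. All values are log2 values after robust multi-array average (RMA) processing by the authors, and each difference is the β-catenin siRNA value minus the control siRNA value. With 1 array per group there was no replicate error, so no difference could be tested against the spread between cultures. For scale, the difference varied among the 500 genes nearest in level with a robust SD between 0.16 and 0.21 for the 30 genes, which mixes noise, culture differences and any siRNA effect. All 8 fibroblast markers were above the median level of all genes, for example Col1a1 at 12.71 after β-catenin siRNA and 12.77 after control siRNA. In bulk cultures, fewer cells of a type and less RNA per cell cannot be told apart.

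Most of the lipid synthesis genes were slightly lower after β-catenin siRNA. Of the 30 measured genes, 24 (80.0%) were lower by any amount, against 52.5% of all genes, and 6 were higher. Their median difference was -0.17, or 88.9% of the control signal, against a median of -0.02 over all genes. Differences were small. At 1.2-fold or more, 6 genes were lower (20.0%, against 16.8% of all genes) and 1 was higher (3.33%, against 11.9%). The 6 were Pmvk, Mvd, Hsd17b7, Mvk, Ebp and Lss, and the higher gene was Insig2. At 1.5-fold, none was lower (2.35% of all genes) or higher (2.23% of all genes). The share lower by 1.2-fold or more was thus near that of all genes. The share higher by 1.2-fold or more was smaller, resting on 1 gene, and the share lower by any amount was larger. All 30 genes had a mean level above the median of all genes, 5.13, and dim genes vary more. Among the 5342 genes within the same range of mean level, 55.3% were lower by any amount, 12.7% were lower and 8.78% higher by 1.2-fold or more, and 1.54% were lower and 2.13% higher by 1.5-fold or more. Just past the 1.2-fold threshold of 0.26 were Ebp at -0.30 and Lss at -0.29, and just short of it were Sqle at -0.26 and Fdps at -0.24.

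**Figure D2:**
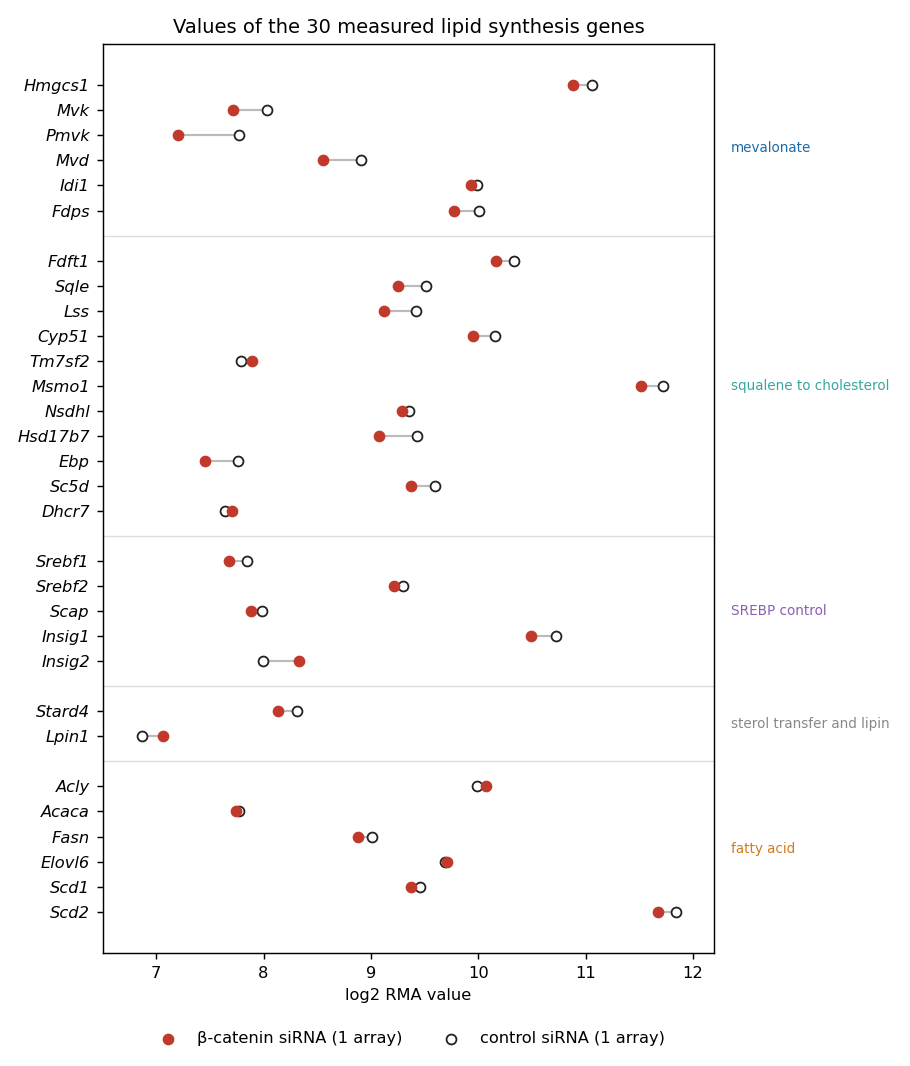
Log2 RMA values (x axis) of the 30 measured genes on the β-catenin siRNA array (red) and on the control siRNA array (white), 1 array each, with genes grouped by their place in the pathway. Red lies left of white for 24 genes.

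The mevalonate branch was lower at every measured step. All 6 measured genes were lower by any amount, as were 52.5% of all genes. By 1.2-fold or more, 3 of the 6 were lower, against 16.8% of all genes. The median difference was -0.28, or 82.3% of the control signal. Pmvk, the phosphomevalonate kinase, had the largest difference of the 30 genes. It had a log2 value of 7.20 on the β-catenin siRNA array, against 7.77 on the control siRNA array, which made it 1.48-fold lower, and 2.68% of all genes had a lower difference. The kinase before it and the decarboxylase after it came next in this branch. Mvk, the mevalonate kinase, had 7.71 after β-catenin siRNA and 8.04 after control siRNA (1.25-fold lower). Mvd, which forms isopentenyl diphosphate from the product of Pmvk, had 8.55 after β-catenin siRNA and 8.91 after control siRNA (1.28-fold lower). The enzymes at the ends of the branch differed less. Hmgcs1, the HMG-CoA synthase at the head of the branch, had 10.89 after β-catenin siRNA and 11.06 after control siRNA, a difference of -0.17. Fdps, which makes farnesyl diphosphate, had 9.77 after β-catenin siRNA and 10.01 after control siRNA (-0.24). Idi1, the isomerase of isopentenyl diphosphate, differed least of the branch at -0.06, with 9.93 after β-catenin siRNA and 9.99 after control siRNA. Its second probe set gave a difference of -0.03.

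From squalene to cholesterol, 9 of 11 genes were lower by any amount, as were 52.5% of all genes. By 1.2-fold or more, 3 were lower (27.3%, against 16.8% of all genes), and the median difference was -0.21. Hsd17b7, a reductase of the complex that removes methyl groups from sterol intermediates, had 9.08 after β-catenin siRNA and 9.43 after control siRNA (1.28-fold lower). Its partners in this complex differed less, with -0.21 for the oxygenase gene Msmo1 and -0.06 for the dehydrogenase gene Nsdhl. Ebp, the sterol isomerase that follows, had 7.46 after β-catenin siRNA and 7.76 after control siRNA (1.24-fold lower). Lss, which closes the ring system to lanosterol, had 9.12 after β-catenin siRNA and 9.42 after control siRNA (1.23-fold lower). Between 9.78% and 13.9% of all genes had a lower difference than these 3. Sqle, the squalene epoxidase and a control point of the branch, had 9.26 after β-catenin siRNA and 9.51 after control siRNA, a difference of -0.26. Fdft1, the squalene synthase, had 10.16 after β-catenin siRNA and 10.34 after control siRNA (-0.18), and its second probe set gave -0.17. The demethylase gene Cyp51 (-0.20) and the desaturase gene Sc5d (-0.22) lay in the same range. The 2 genes that went the other way both encode reductases, as does Hsd17b7, which had the lowest difference of these 11 genes. Tm7sf2, a sterol reductase of the step after Cyp51, had 7.89 after β-catenin siRNA and 7.79 after control siRNA, and Dhcr7, which reduces the immediate precursor of cholesterol, had 7.71 after β-catenin siRNA and 7.64 after control siRNA. Both differences, 0.10 and 0.07, lay within the middle range of all genes (quartiles -0.19 and 0.14).

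Taking both sterol branches, 15 of 17 measured enzymes (88.2%) were lower by any amount, against 52.5% of all genes, and 6 (35.3%) were lower by 1.2-fold or more, against 16.8%. Their differences ran from -0.57 to 0.10, with a median of -0.22. The regulators and fatty acid enzymes number only 5 and 6, so few of them would pass 1.2-fold at the share of all genes.

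**Figure D3:**
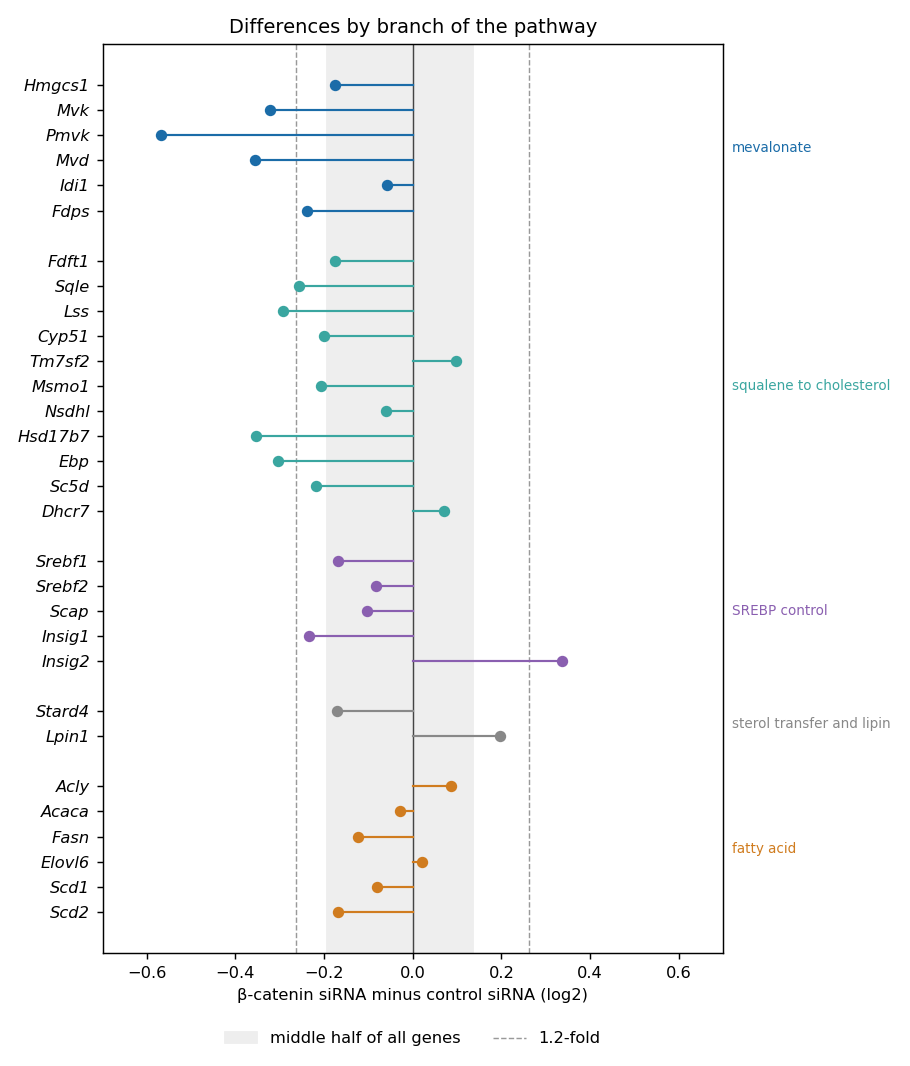
Difference of log2 values, β-catenin siRNA minus control siRNA (x axis), for each measured gene by branch. Grey marks the middle 50% of all genes (from -0.19 to 0.14) and dashed lines 1.2-fold, which 6 sterol enzymes pass to the left and Insig2 to the right.

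The regulators of SREBP differed by less, apart from the Insig genes. Srebf2, which encodes SREBP2, had 9.21 after β-catenin siRNA and 9.29 after control siRNA, a difference of -0.08. Srebf1, which encodes the SREBP1 isoforms, had 7.68 after β-catenin siRNA and 7.85 after control siRNA (-0.17). Scap, the escort protein gene, differed by -0.10. These 3 differences lay within the middle range of all genes. The Insig genes encode closely related anchors that retain the Scap-SREBP complex, and Insig1 is itself a known SREBP target. Insig1 had 10.49 after β-catenin siRNA, against 10.72 after control siRNA, or 85.0% of the control signal. Insig2 had 8.33 after β-catenin siRNA, against 7.998 after control siRNA, or 126% of the control signal, and 92.0% of all genes had a lower difference. In their windows printed above, Insig1 holds 1 CCAAT and 3 GGGCGG matches, and Insig2 holds 3 CCAAT matches and no GGGCGG. Each of the other 2 annotated Insig2 starts holds 1 GGGCGG match and no CCAAT.

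Stard4 and Lpin1 differed in opposite directions. Stard4, which encodes a sterol transfer protein and is a known SREBP2 target, had 8.14 after β-catenin siRNA and 8.31 after control siRNA (-0.17). Lpin1, a phosphatidate phosphatase gene, had 7.07 after β-catenin siRNA and 6.87 after control siRNA (0.20). Neither reached 1.2-fold.

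Fatty acid synthesis enzymes differed little. Of 6 genes, 4 were lower (52.5% of all genes were) and 2 higher (41.6%) by any amount, none by 1.2-fold. The median difference was -0.06. The range was from -0.17 to 0.09. Acly, which makes cytosolic acetyl-CoA from citrate for both pathways, had 10.08 after β-catenin siRNA and 9.99 after control siRNA (0.09). Acaca, the acetyl-CoA carboxylase, had 7.75 after β-catenin siRNA and 7.78 after control siRNA (-0.03), and its second probe set had the other sign, at 0.11. Fasn, the fatty acid synthase, had 8.88 after β-catenin siRNA and 9.01 after control siRNA (-0.12). None of these 3 lay outside the middle 50% of all genes. Elovl6, the elongase of palmitate, had 9.71 after β-catenin siRNA and 9.69 after control siRNA (0.02). The desaturases, which make monounsaturated fatty acids, were Scd1 at 9.37 after β-catenin siRNA and 9.45 after control siRNA (-0.08) and Scd2 at 11.68 after β-catenin siRNA and 11.85 after control siRNA (-0.17). Scd1 and Scd2 are paralogs, and probes of such genes can share signal. Whether sterol and fatty acid enzymes differed from each other was not tested.

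**Figure D4:**
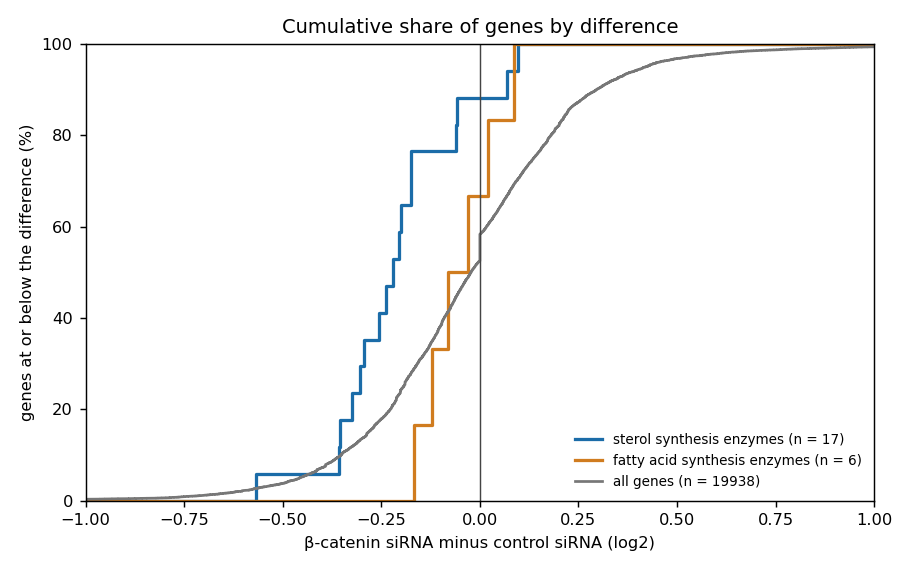
Cumulative share of genes (y axis, percent) at or below each log2 difference, β-catenin siRNA minus control siRNA (x axis), for 17 sterol synthesis enzymes, 6 fatty acid synthesis enzymes and all 19938 genes. The sterol curve lies left of that of all genes over most of its range, with 88.2% of enzymes below 0; the step at 0 comes from 1168 genes with equal values on both arrays.

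CCAAT letters and the difference could be set side by side for the 24 genes with a window. Of the 20 genes with CCAAT, 16 were lower, with a median difference of -0.19. Of the 4 without it, 2 were lower and the median was -0.0046. All 14 sterol enzymes with a window are in the first group. Among the genes that are not sterol enzymes, 4 of 6 with CCAAT were lower (median -0.10), as were 2 of 4 without it (median -0.0046). GGGCGG letters gave a like split, with a median of -0.17 over the 19 genes that held them and -0.03 over the others. The others were Pmvk (-0.57), which is a sterol enzyme, and Lpin1, Acaca, Fasn and Elovl6, which are not. None of these splits was tested.

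Genes of the other isoprenoid branches and of SREBP processing did not share one direction. Among 11 measured genes of the other isoprenoid branches, 4 were lower (52.5% of all genes were) and 6 higher (41.6%) by any amount. Pggt1b had equal values on both arrays, and the median was 0.06. Only Icmt, the methyltransferase that finishes prenylated proteins, passed 1.2-fold (9.09%, against 16.8% of all genes lower by 1.2-fold or more). Icmt had 7.36 after β-catenin siRNA and 7.73 after control siRNA (-0.38). The prenyltransferase subunit genes Rabggta (-0.23) and Fntb (0.17) and the coenzyme Q gene Coq2 (-0.09) did not reach 1.2-fold. Of 12 measured genes for SREBP processing and sterol-linked protein degradation, 6 were lower (52.5% of all genes were) and 6 higher (41.6%). Their median was 0.01. By 1.2-fold or more, 2 were lower (16.7%, against 16.8% of all genes) and none was higher (11.9% of all genes). Fbxw7, a ubiquitin ligase subunit that marks nuclear SREBPs among many other proteins, had 5.69 after β-catenin siRNA and 6.27 after control siRNA (-0.58), and Ube2g2, a conjugating enzyme of endoplasmic reticulum degradation, differed by -0.31. The sterol-sensing adaptor genes Erlin1 (0.22) and Erlin2 (0.14) were higher by less than 1.2-fold.

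Sterol efflux and uptake genes went both ways. Of 10 measured genes of the oxysterol receptor (LXR) and efflux list, 6 were higher, 3 of them by 1.2-fold or more (11.9% of all genes were), and 4 were lower, 1 of them by 1.2-fold or more (16.8% of all genes). Their median of 0.14 was 0.067 over the 9 genes at or above the median level and -0.12 over the 2 above the 75th percentile of level, so the list had no settled direction. Mylip, a ubiquitin ligase of lipoprotein receptors and an LXR target, had 7.26 after β-catenin siRNA and 6.78 after control siRNA (0.47). The oxysterol hydroxylase genes Cyp7b1 (0.53) and Cyp27a1 (-0.33) differed in opposite directions, and the efflux pump gene Abca1 differed by 0.26. The values of Cyp7b1 (5.57 after β-catenin siRNA, 5.05 after control siRNA) and Cyp27a1 (5.00 after β-catenin siRNA, 5.33 after control siRNA) were near the median level of all genes. Of 11 genes for sterol uptake, transfer and esterification, 6 were lower, 4 of them by 1.2-fold or more (36.4%, against 16.8% of all genes), and 5 were higher. Their median was -0.04, and it was 0.10 over the 9 brightest, above the 75th percentile of level. The lipoprotein receptor gene Vldlr had 7.42 after β-catenin siRNA and 7.91 after control siRNA (-0.49). Lrp8, a related receptor gene, had 6.51 after β-catenin siRNA and 6.98 after control siRNA (-0.48). Scarb1, a receptor for high-density lipoprotein, differed by -0.33. Lrp1, a large endocytic receptor gene, was higher, with 10.28 after β-catenin siRNA and 9.75 after control siRNA (0.53).

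Genes of the wider fatty acid synthesis list were lower in most cases, by small amounts. Of 24 measured genes, 18 were lower by any amount (as were 52.5% of all genes), and the median was -0.11. Past 1.2-fold, 4 were lower (16.7%, against 16.8% of all genes) and none was higher (11.9% of all genes). Hacd1, a dehydratase of very long chain elongation, had 8.29 after β-catenin siRNA and 8.70 after control siRNA (-0.41). Fads3, a desaturase family gene, differed by -0.38, Mid1ip1, an activator of acetyl-CoA carboxylase, by -0.34, and Me1, a malic enzyme that supplies NADPH, by -0.29.

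**Figure D5:**
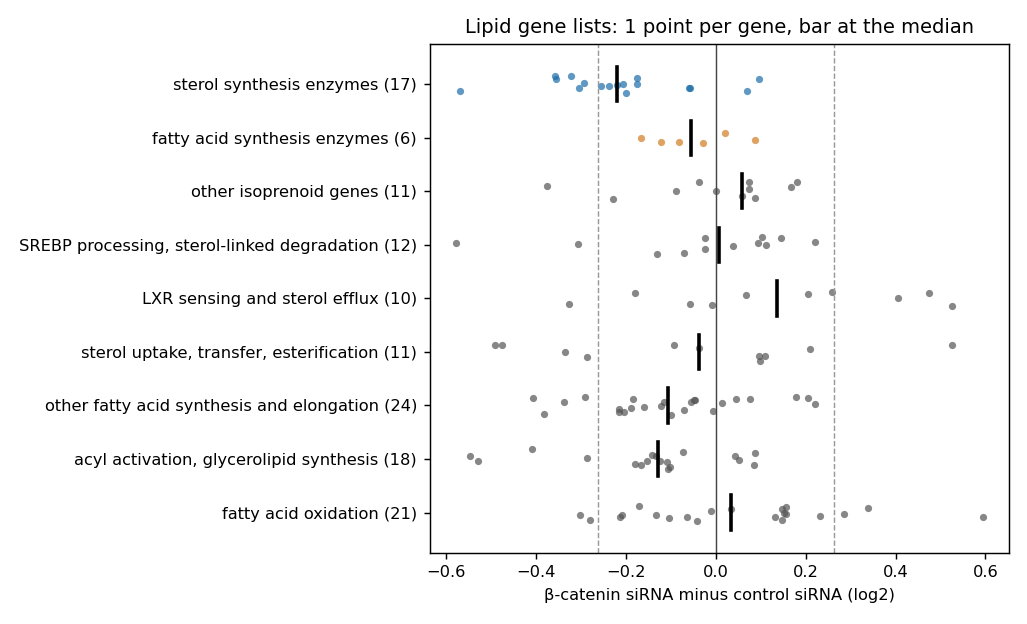
Differences of log2 values, β-catenin siRNA minus control siRNA (x axis), for the sterol and fatty acid synthesis enzymes and for 7 lists of related genes, 1 point per measured gene (spread vertically for legibility), with the number of genes in brackets. The black bar is the median, at -0.22 for the sterol enzymes and between -0.13 and 0.14 for the other lists; dashed lines mark 1.2-fold.

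Of the fibroblast markers 4 were higher (41.6% of all genes were) and 4 lower (52.5%) by any amount. Dcn was 11.61 after β-catenin siRNA and 10.77 after control siRNA, and Pdgfra was 10.59 after β-catenin siRNA and 9.83 after control siRNA. Both were higher by 1.5-fold or more (2.23% of all genes were). The summed linear signal of the fibroblast markers was 28597 after β-catenin siRNA and 26932 after control siRNA. Markers of lipid-rich skin cells were dim or differed little. None of 7 measured adipocyte markers reached the median level of all genes. Of these, 4 were higher by any amount (41.6% of all genes were), 2 of them by 1.2-fold or more (11.9% of all genes). The other 3 were lower (52.5% of all genes were), 1 of them by 1.2-fold or more (16.8% of all genes). Adipoq had the lowest difference, with 3.07 after β-catenin siRNA and 3.46 after control siRNA, and Pparg had the highest (0.49). The summed adipocyte signal was 101 after β-catenin siRNA and 94.0 after control siRNA. Of 7 sebocyte markers, 4 were lower (52.5% of all genes were) and 3 higher (41.6%) by any amount. Only Mgst1 and Plin2, which many cells express, were above the median level of all genes. The defining gene Awat2 was dim and higher, at 3.08 after β-catenin siRNA and 2.60 after control siRNA. The summed sebocyte signal was 1806 after β-catenin siRNA and 2012 after control siRNA, most of it from Plin2 at 10.42 after β-catenin siRNA and 10.63 after control siRNA. Most keratinocyte markers were higher after β-catenin siRNA. Only 3 of the 8, Krt5, Krt14 and Cdh1, had a mean level at or above the median of all genes. Of 8, 6 were higher by any amount (41.6% of all genes were), 3 of them by 1.5-fold or more (2.23% of all genes), and the summed signal was 989 after β-catenin siRNA and 612 after control siRNA. Krt5 was 8.65 after β-catenin siRNA and 7.64 after control siRNA, whereas the dim marker Krt15 was lower, at 3.75 after β-catenin siRNA and 4.30 after control siRNA. All 5 melanocyte markers were lower by any amount (52.5% of all genes were), by at most 0.38. Of these, 3 were lower by 1.2-fold or more (16.8% of all genes). The melanocyte sums were 161 after β-catenin siRNA and 187 after control siRNA. None of 6 macrophage and 5 endothelial markers had a mean level at or above the median of all genes. Of the macrophage markers, 5 were lower (52.5% of all genes were), and Lyz2 was higher (0.63). Their sums were 102 after β-catenin siRNA and 95.3 after control siRNA. Of the endothelial markers, 3 were higher (41.6% of all genes were), among them Tek (0.70). Kdr was lower (-0.51), and Cdh5 had equal values on both arrays. The endothelial sums were 91.2 after β-catenin siRNA and 91.5 after control siRNA. The part of the fibroblast, keratinocyte and melanocyte signals in the lipid gene differences was not tested.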

How the data were processed

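For each group, 300 ng of total RNA was labelled for 1 Affymetrix array, per the labels' protocols. The deposited log2 values were made by the authors with RMA, per the submitters' processing notes; its software, version and filters were not given in the sources used here, and the log2 scale was judged from the range (0.485 to 13.5). The sorted columns differed by at most 0.123, so the values show differences relative to other genes and not in RNA yield. RMA also shrinks differences of dim genes.

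Of 28944 probe sets, 21789 had 1 gene symbol, 1621 several and 5534 none in the platform annotation, and 21698 were matched by gene ID to RefSeq (GRCm38.p6) symbols. The probe set with the highest mean stood for a gene. Members and lists were chosen with earlier results of these data known. All 31 members are named where measured, as are the 4 largest absolute differences of each wider list among genes at or above the median level (5.13), and other genes were named after their values were seen. Fold sizes of 1.2 and 1.5 were used. There was no test. The number of arrays limits the precision. Python 3.11.15, pandas 2.3.3 and statsmodels 0.14.6 were used, and the counting was checked on simulated differences. Alternatives were another summary of probe sets, median and lowess centring (span 0.3), 2 level filters and background subtraction (5th percentile).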

Additional observations from a re-analysis of the deposited data

How the results depend on the processing

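No paired analysis was possible because each group had 1 array, and leaving out a replicate was likewise not possible. There was no replicate spread to set a move against. For scale, differences from several probe sets of a gene had a pooled SD of 0.15 (577 genes). Level filters cannot change a gene's own difference, another summary of probe sets bears only on genes with several, and centring shifts all genes nearly alike, so the agreement of single-gene values across settings says little. The median of the 30 genes, -0.17, was -0.14 after lowess centring and -0.15 after median centring, 23 or 24 genes were lower by any amount, and 5 or 6 were lower by 1.2-fold or more under each alternative run. Acaca turned to 0.040 with the mean of its probe sets. Restricting to genes at or above the 75th percentile of level (7.12) turned the medians of Stard4 and Lpin1 to -0.17 (1 gene left), of the LXR and efflux list to -0.12 (2 genes left) and of the uptake list to 0.10 (9 left), and it moved the medians of the other fatty acid synthesis list to -0.14 and of fatty acid oxidation to 0.083. The LXR list was at 0.067 with the filter at the median level, and fatty acid oxidation at 0.066 after lowess centring. The share of all genes at least 1.5-fold lower was 1.46% with the stricter filter and 5.45% after background subtraction, and 1.54% within the range of level of the 30 genes, a setting chosen after seeing the data. Where a filter applied, fewer genes were left, and for Acaca the second probe set, at 0.11, entered the mean. Otherwise the cause was not tested.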

Other observations

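Genes that use fatty acids were also measured. Of 18 genes for fatty acid activation and glycerolipid synthesis, 14 were lower by any amount (77.8%, against 52.5% of all genes), with a median difference of -0.13. Past 1.2-fold, 4 were lower (22.2%, against 16.8% of all genes) and none was higher (11.9% of all genes). Dgat2, which makes triglyceride, had a log2 value of 5.45 after β-catenin siRNA and 5.99 after control siRNA (-0.55). Agpat4, an acyltransferase, had 7.05 after β-catenin siRNA and 7.58 after control siRNA (-0.53). Pemt and Chka, which serve phosphatidylcholine synthesis, differed by -0.41 and -0.29. Of 21 fatty acid oxidation genes, 11 lay above 0 (41.6% of all genes did) and 10 below (52.5%), with a median of 0.03. By 1.2-fold or more, 3 were higher (14.3%, against 11.9% of all genes) and 2 lower (9.52%, against 16.8%). Cpt1a, which controls entry of fatty acids into mitochondria, was the only one of the 21 past 1.5-fold (2.23% of all genes were higher by 1.5-fold or more). Cpt1a had 8.28 after β-catenin siRNA and 7.68 after control siRNA (0.59). Eci2 (0.34) and Etfa (0.29) were higher, and Etfb, the partner subunit of Etfa, differed by -0.30.

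A probe set annotated to several genes, Srebf2 among them, was left out by the rule and had 7.70 after β-catenin siRNA and 7.40 after control siRNA, opposite in direction to the probe set of Srebf2 alone.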
